A study of Caenorhabditis elegans with 79 samples.

Results

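H3K9me3, trimethylation of lysine 9 on histone H3, was compared between hrde-1 mutant and wild-type Caenorhabditis elegans across the whole genome. The comparison used 5 of the 79 libraries of the series, chosen by antibody, genotype and stage from their labels. The 3 hrde-1 libraries carried the tm1200 allele and came from generation F1, called early, and from generations F4 and F5, called late replicates 1 and 2. The 2 WT libraries used were of strain N2, 1 from generation F1 and 1 from F4. Another WT H3K9me3 library, from F5 and labelled apart from the early and late sets, was not used. Its column of values could not be matched to its label. All 5 libraries used were made from pulverised whole young adults that had been moved from 20 °C to 25 °C at the start of the generation count. Their values were FPKM, fragments scaled to the region's length and the library's size, in 1000-bp regions. Of 100257 regions in the authors' deposited table, the 100250 with a mean of at least 2 FPKM over 12 input libraries were tested. An input library is sequenced from the same kind of lysate without antibody. The labels do not say that the libraries came from separate cultures, so a p-value here reflects the spread among these libraries alone. For H3K36me3 the late libraries were 2 of hrde-1, both F4, and 3 of WT, from F4, F4 and F5. There were also 2 late libraries each, all F4, of met-1 hrde-1 double mutants, which carry met-1 allele xk4 with tm1200, and of the met-1 single mutant with xk4. The series as a whole was built around morc-1 mutants, with WT and hrde-1 as controls, and also held H3K36me3, mRNA and small RNA libraries. Of these, the 3 morc-1 H3K9me3 libraries used below came from F1, F4 and F5. The 8 mRNA libraries of hrde-1 and WT came from F1 and F4, and the early H3K36me3 libraries from F1.

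HRDE-1 is an Argonaute protein of the germline nucleus. It binds small RNAs made against a target transcript and, with the nuclear RNAi factors, lowers transcription of that target and brings H3K9me3 to its chromatin. The silenced state is passed to progeny, and hrde-1 mutants lose fertility over generations at raised temperature. H3K9me3 marks heterochromatin, which in this worm is found largely on repeats and on the arms of the autosomes. H3K36me3 is laid down along transcribed genes, in the worm by MET-1 and MES-4.

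The steps between low FPKM values put the depth at 12080000 to 19810000 fragments in the hrde-1 libraries and at 16070000 and 18040000 in the WT libraries. At those depths 89.0% to 94.7% of the low values were whole fragment numbers within 0.1 of a fragment, so the depths are estimates. The mRNA of hrde-1, listed under its older name wago-9, stood at 151 and 134 FPKM in early and 81.1 and 68.5 FPKM in late hrde-1 animals. In WT it stood at 234 and 198 FPKM in early and 102 and 97.2 FPKM in late animals. This value covers the whole gene and does not check the mutated part. All 15 markers of germline, sperm, muscle, intestine and neurons looked up were listed in the 8 mRNA libraries of these strains. The intestinal yolk gene vit-6 was listed at 0 in the 4 late mRNA libraries of both strains. With ges-1 and elt-2 it summed to 11774 and 5947 FPKM in early WT and 10714 and 8647 FPKM in early hrde-1. The late sums were 61.6 and 31.4 FPKM in WT and 37.3 and 26.9 FPKM in hrde-1. The 3 sperm markers summed to 44.9 and 51.5 FPKM in early and 88.6 and 204 FPKM in late hrde-1, against 23.2 and 16.4 FPKM in early and 3.72 and 28.2 FPKM in late WT. Every hrde-1 sperm sum lay above every WT sperm sum, and the part of this in the H3K9me3 differences was not tested. Whole animals mix germline and soma, so fewer cells carrying the mark and less mark per cell cannot be told apart.

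H3K9me3 was lower in hrde-1 at 1358 regions (1.35% of regions tested) and higher at 334 (0.333%), by limma on log2(FPKM + 1) with stage as a covariate and a Benjamini-Hochberg adjusted p under 0.05. At an unadjusted p under 0.05, 3332 regions were lower and 2270 higher. The median log2 change was -0.94 over the lower regions and 0.74 over the higher ones, against -0.02 over all regions tested. A fall of at least 1 on the log2 scale was seen at 598 of the lower regions and of at least 2 at 52. Of the higher regions, 44 differed by at least 1. The smallest change called was 0.55 on the log2 scale.

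In hrde-1, the median lower region held 7.13 FPKM in the early library and 6.89 and 7.37 FPKM in the late libraries, against 14.8 FPKM in the early and 17.6 FPKM in the late WT library. The median over all regions tested was 7.30, 7.53 and 7.77 FPKM in the hrde-1 libraries and 7.72 and 7.87 FPKM in the WT libraries. The typical lower region therefore stood at the genome-wide median in hrde-1 and well above it in WT. All 3 hrde-1 libraries lay below their own genome-wide median at 596 of the 1358 lower regions, and above 2 times that median at 93. Both WT libraries exceeded 2 times their median at 580. The lower regions held 1.15% to 1.30% of all FPKM in the hrde-1 libraries, against 2.41% and 2.95% in WT. The 3 hrde-1 values and the 2 WT values did not overlap at 1333 of the lower regions. Over all regions tested, every hrde-1 library was below both WT libraries at 11.6%. The strains did not overlap at 331 of the 334 higher regions, and every hrde-1 library was above both WT libraries at 8.03% of all regions.

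The count of lower regions depended most on the late WT library. Without it 570 regions were lower, 566 of them also lower with all 5 libraries. Without any other single library, 1216 to 1459 were lower. The count of higher regions was less steady. It was 139 without the early hrde-1 library, 143 without the early WT library, 175 without hrde-1 late replicate 2 and 927 without hrde-1 late replicate 1.

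**Figure D1:**
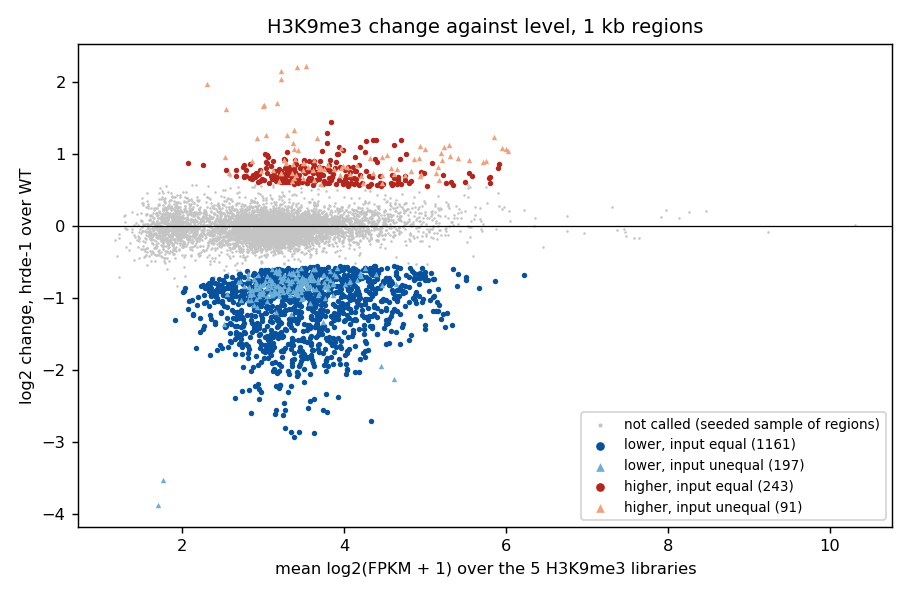
Each point is a 1 kb region, with its mean log2(FPKM + 1) over the 5 H3K9me3 libraries on the x axis and its log2 change, hrde-1 over WT, on the y axis. Coloured points are the 1358 lower and 334 higher regions, triangles are those whose input also differed between the strains, and grey points are a seeded sample of uncalled regions. Falls reach further from 0 than rises among regions of equal input.

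The authors' table marks 215 tested regions as GRH (0.214% of regions tested) and 191 as GRTS (0.191%). These are terms used for germline nuclear RNAi-dependent heterochromatin and transcriptional silencing, and the file does not say from which libraries the marks were made, so they are not independent evidence of a direction. H3K9me3 fell at 199 of the 215 GRH regions (92.6%), against 1.35% of all regions tested. None rose, against 0.333% of all. Their median log2 change was -1.47, and all 215 had a negative value, from -2.93 to -0.30. The median GRH region held 3.97, 4.19 and 4.95 FPKM in hrde-1 early, late replicate 1 and late replicate 2, against 12 FPKM in WT early and 17.24 FPKM in WT late. Every hrde-1 library was below both WT libraries at 206 of the 215, against 11.6% of all regions tested. The 16 GRH regions that did not pass the test had values from -0.79 to -0.30, and 9 of them averaged under 5 FPKM. At 154 GRH regions the single early hrde-1 library was below the early WT library by at least 1 on the log2 scale, against 0.503% of all regions tested. At 187 GRH regions the mean log2 value of the late hrde-1 libraries was below the late WT library by at least 1. The share of all regions tested at this late threshold was not counted. The median log2 difference at GRH regions was -1.29 early and -1.61 late, against -0.05 and -0.01 over all regions tested.

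At GRTS regions the fall was smaller and started from more H3K9me3. Of the 191, 135 were lower (70.7%) and none was higher, against 1.35% and 0.333% of all regions tested. The median log2 change was -0.87. The median GRTS region held 11.2, 11.3 and 11.9 FPKM in the hrde-1 libraries, against 22.5 and 26.96 FPKM in the WT libraries. Unlike the GRH regions, GRTS regions thus kept a median above that of all regions in each hrde-1 library. The 25 regions with both marks were all lower, with a median log2 change of -1.58. Even so, 1049 of the 1358 lower regions carried neither mark. Without the late WT library, 140 GRH and 87 GRTS regions were lower.

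**Figure D2:**
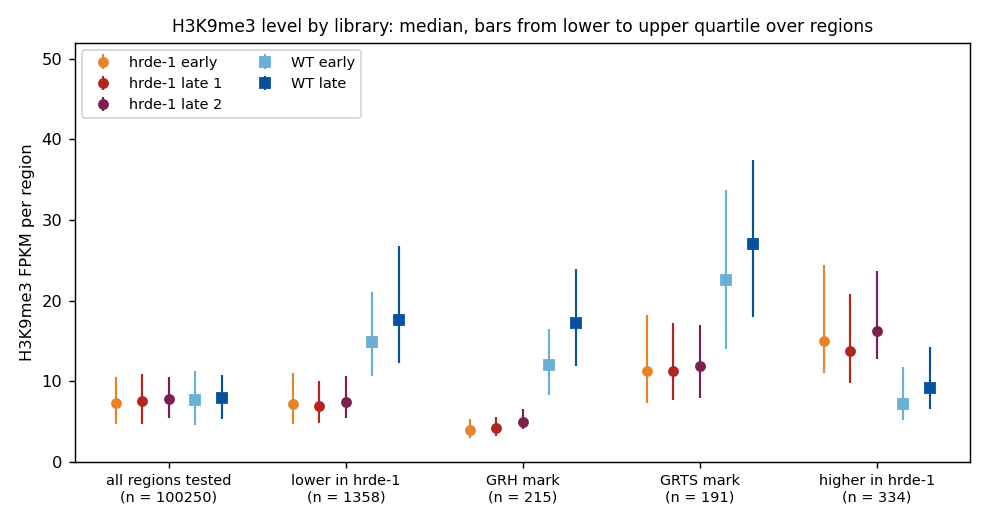
Median H3K9me3 FPKM per region in each of the 3 hrde-1 (circles) and 2 WT (squares) libraries, with bars from the lower to the upper quartile over regions. Over all regions the 5 medians lie between 7.30 and 7.87, whereas at GRH regions the hrde-1 medians of 3.97 to 4.95 lie below the WT medians of 12 and 17.24.

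The lower regions were clustered. Joining called neighbours with at most 1 uncalled region between them gave 243 runs, of which 54 were single regions and 91 held 5 or more regions, 1020 regions in all. Among the 12 longest runs, 8 had the same input in both strains. Coordinates are 1-based positions in the table's own build, which is not given in the sources used here, and no gene could be assigned to them.

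The run at chrI:2035001-2063000 held 28 called regions with a median log2 change of -1.50, of which the largest was -2.85. Its mean H3K9me3 was 7.19 FPKM in hrde-1 early and 6.22 and 9.06 FPKM in hrde-1 late, against 19.9 FPKM in WT early and 28.5 FPKM in WT late. Every called region in it kept the strains apart, as did 1333 of all 1358 lower regions. H3K9me3 in WT formed a main peak with a broad shoulder, and in hrde-1 the shoulder lay near the level outside the run while a smaller peak remained. Input was 10.1 FPKM in both hrde-1 libraries, against 10.1 and 9.98 FPKM in WT. The run held 5 GRH regions.

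The other runs of equal input with at least 19 called regions looked alike in size. The run at chrI:231001-253000 had a median log2 change of -1.45, with 8.47, 8.15 and 9.12 FPKM in hrde-1 against 19.8 and 25.3 FPKM in WT. At chrV:15580001-15599000 the median was -1.41, with 5.42, 5.45 and 6.34 FPKM in hrde-1 against 15.3 and 19.4 FPKM in WT. This run held 6 GRH regions, the most of any named run. The runs at chrIV:2894001-2918000, chrI:11052001-11076000, chrV:17631001-17656000 and chrIII:3438001-3457000 had medians of -1.23, -1.18, -1.18 and -0.9999. Their mean H3K9me3 lay between 6.84 and 15.3 FPKM in hrde-1 and between 18.02 and 33.9 FPKM in WT. In none of these 6 did the median input differ by more than 0.06 on the log2 scale.

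The run at chrX:225001-256000, with 29 called regions, was the longest with equal input and, of the named runs, the one in which the stages differed most. Its mean H3K9me3 was 11.5 FPKM in hrde-1 early and 5.14 and 6.34 FPKM in hrde-1 late, against 17.5 FPKM in WT early and 22.6 FPKM in WT late. The early hrde-1 library lay between the late hrde-1 libraries and the WT libraries. The median log2 difference was -0.58 between the early libraries and -1.66 between the late ones.

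Of the 5 largest single falls, 3 were at regions of equal input, on chromosomes II and I. At chrII:12743001-12744000, marked GRH, H3K9me3 was 3.25, 3.64 and 4.34 FPKM in hrde-1, against 25.4 and 43.2 FPKM in WT, a log2 change of -2.93 ± 0.16 (SE, limma adjusted p = 4.09e-17). The region at chrII:12745001-12746000, also GRH, had 3.43, 3.81 and 3.68 FPKM in hrde-1 against 25.9 and 38.5 FPKM in WT. At chrI:4460001-4461000, marked both GRH and GRTS, it was 4.12, 5.01 and 4.84 FPKM in hrde-1 against 32.1 and 47.0 FPKM in WT, a log2 change of -2.88 ± 0.16. That all 3 hrde-1 values lay below both WT values was a condition for naming these regions. Input at them differed by 0.06 or less on the log2 scale. H3K36me3 rose at each. It was 44.0 and 38.8 FPKM in late hrde-1 at chrII:12743001-12744000, against 10.9, 11.9 and 11.1 FPKM in late WT.

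The other named falls moved together with input. At chrV:16480001-16481000 H3K9me3 was 0.07, 0.17 and 0.10 FPKM in hrde-1, against 16.2 and 14.4 FPKM in WT, a log2 change of -3.87. Input was listed at 0 FPKM in both hrde-1 libraries and was 7.69 and 6.22 FPKM in WT. Input was also listed at 0 in both met-1 hrde-1 libraries and stood between 6.35 and 10.2 FPKM in the morc-1, met-1 and met-1 morc-1 inputs. At chrV:1646001-1647000 H3K9me3 was 0.36, 0 and 0.50 FPKM in hrde-1 against 14.9 and 12.97 FPKM in WT, and input was 0.23 and 0.14 FPKM in hrde-1 against 9.69 and 9.79 FPKM in WT. With log2 input subtracted, the change was -0.90 at chrV:16480001-16481000 (limma adjusted p = 0.0013) and -0.34 at chrV:1646001-1647000 (limma adjusted p = 0.708). In hrde-1 both H3K9me3 and input lay near 0 at these regions, where the 1 FPKM added before taking logs sets the value. The -0.90 therefore rests on the WT libraries and is not a measure of the mark in hrde-1.

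Unequal input touched the longest runs of all. A region was counted as of unequal input where the mean log2 input differed by at least 0.6 and the 2 hrde-1 inputs did not overlap the 2 WT inputs, which held for 0.335% of regions tested. It held for 197 of the 1358 lower regions (14.5%), each with less input in hrde-1. On chromosome V, 4 adjoining runs between 2348001 and 2562000 held 202 of the 1358 lower regions, out of 214 tested there. In the block chrV:2348001-2454000 H3K9me3 averaged 7.59, 7.59 and 7.28 FPKM in hrde-1, against 14.6 and 13.01 FPKM in WT. Input averaged 5.07 and 5.17 FPKM in hrde-1, against 9.78 and 9.83 FPKM in WT. The gap in H3K9me3 was thus about as large as the gap in input. The same block had input of 29.2 and 28.9 FPKM in morc-1, of 4.84 and 4.90 FPKM in met-1, of 5.03 and 5.08 FPKM in met-1 hrde-1, and of 10.1 and 10.0 FPKM in met-1 morc-1. With log2 input subtracted, 0 of the 214 regions were lower in hrde-1 by limma, and the medians of the 4 runs lay between -0.07 and 0.05. When regions of unequal input were left out of the test, 1134 regions were lower and 218 higher.

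**Figure D3:**
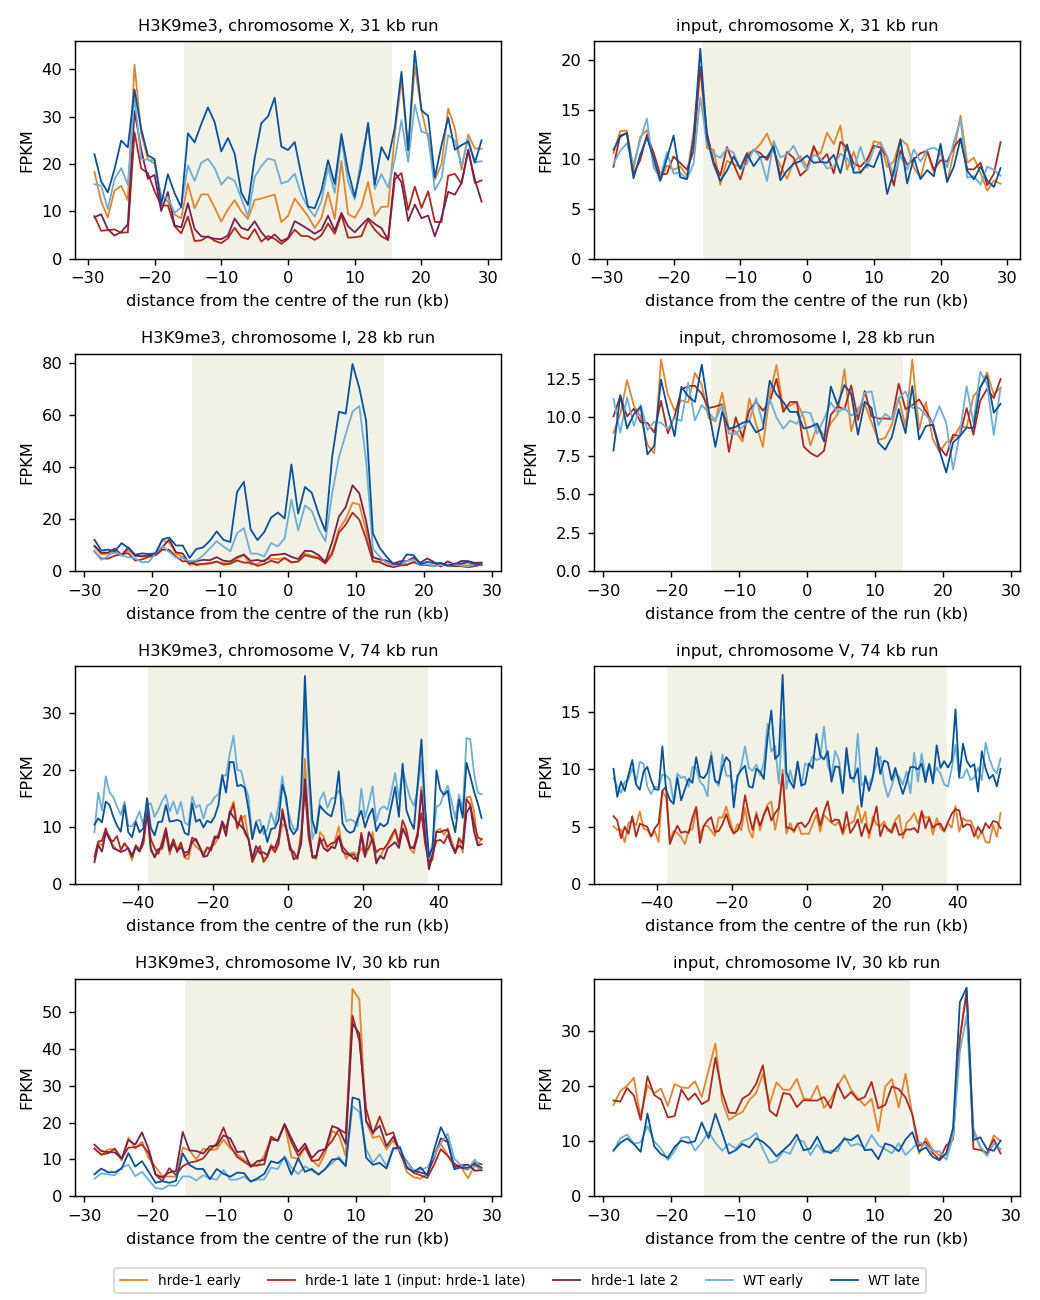
H3K9me3 (left) and input (right) FPKM of each library in 1 kb regions against distance from the centre of 4 runs, shaded over the run: 3 lower in hrde-1 (chromosomes X, I and V) and 1 higher (chromosome IV). Input curves of hrde-1 and WT run together at the X and I runs, lie at about 5 against 10 FPKM at the V run and at about 18 against 9 FPKM at the IV run.

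Regions with more H3K9me3 in hrde-1 were fewer, and 91 of the 334 (27.2%) had more input in hrde-1. The median higher region held 15.02, 13.7 and 16.2 FPKM in hrde-1, against 7.22 and 9.2 FPKM in WT. Of the 5 longest higher runs, 4 were of unequal input. At chrIV:13885001-13915000 H3K9me3 averaged 16.2, 16.3 and 16.7 FPKM in hrde-1 against 8.30 and 8.81 FPKM in WT, and input 18.7 and 18.3 FPKM in hrde-1 against 9.02 and 9.42 FPKM in WT. With log2 input subtracted, the medians at this run and at chrIV:13863001-13875000 and chrV:18703001-18726000 were -0.12, -0.10 and -0.03, the opposite sign. Of the 22 regions called at chrV:18703001-18726000, the authors mark 14 as misannotated.

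The run at chrIII:333001-342000 held the largest rises and kept a difference after input was subtracted. It averaged 13.5, 15.6 and 13.8 FPKM in hrde-1, against 3.05 and 3.50 FPKM in WT, and its median log2 change was 1.70. Input was 16.3 and 16.02 FPKM in hrde-1, against 8.89 and 7.92 FPKM in WT, and the median after subtraction was 0.94. Its highest region, chrIII:337001-338000, had 18.2, 25.5 and 18.7 FPKM in hrde-1 against 3.36 and 3.70 FPKM in WT (log2 change 2.22 ± 0.16, limma adjusted p = 8.25e-14). H3K36me3 in this run was high in both strains, at 33.9 and 33.99 FPKM in late hrde-1 and 26.1 to 26.98 FPKM in late WT. At chrX:9139001-9140000 H3K9me3 was 7.37, 8.11 and 7.47 FPKM in hrde-1 against 0.81 and 1.55 FPKM in WT. Input there was 8.48 and 8.41 FPKM in hrde-1 against 0.78 and 1.02 FPKM in WT.

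Of the 5 longest higher runs, chrIII:1917001-1927000 alone had like input. Its 10 regions averaged 24.1, 17.4 and 21.7 FPKM in hrde-1, against 7.38 and 11.9 FPKM in WT, with a median log2 change of 1.05. No hrde-1 value overlapped a WT value at any of the 10, as at 331 of all 334 higher regions. Every hrde-1 library was above both WT libraries at 8.03% of all regions tested. The difference was 1.58 between the early libraries and 0.63 between the late ones. H3K36me3 was lower in late hrde-1 at 9 of the 10, averaging 5.09 and 5.70 FPKM against 8.33, 9.48 and 9.56 FPKM in late WT.

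By chromosome, the lower regions were most frequent on V over all regions and on I among regions of equal input, and least frequent on X in both. Of the tested regions, 2.34% were lower on V (490 regions), 1.51% on I (228), 1.34% on IV (234), 1.25% on II (191), 0.892% on III (123) and 0.519% on X (92). Leaving out regions of unequal input brought V to 298 regions and X to 91, and the shares were then 1.51% on I, 1.44% on V, 1.34% on IV, 1.22% on II, 0.893% on III and 0.514% on X. When each autosome was cut into 3 parts of equal length, 1102 of 55024 regions in the outer parts were lower (2.00%), against 164 of 27513 in the middle part (0.596%). Among regions of equal input the shares were 1.66% and 0.592%. Over all chromosomes, with the 502 regions marked misannotated left out, the lower share rose with the level of the mark up to 40 FPKM. It was 0.255% where the 5 libraries averaged under 5 FPKM, 1.13% from 5 to 10 FPKM, 2.51% from 10 to 20 FPKM, 3.47% from 20 to 40 FPKM and 1.87% at 40 FPKM and over. The higher share also rose, from 0.0082% to 0.238%, 0.596%, 1.11% and 2.24% over the same 5 classes. The classes were built from the libraries that were tested, and calls both ways were more frequent at higher levels. At 40 FPKM and over, 10 regions were lower and 12 higher of 535.

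**Figure D4:**
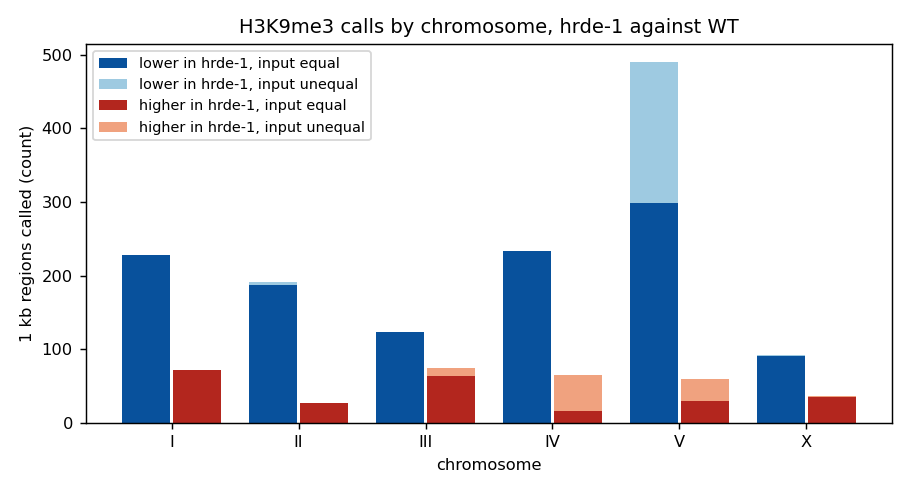
Number of 1 kb regions per chromosome called lower (blue) or higher (red) in hrde-1 than in WT, with the pale part of each bar for regions of unequal input. Chromosome V has 490 lower regions, 298 of them with equal input, and X has 92.

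In the first generation at 25 °C there was 1 library a strain, so its values are given with no test, and the lower regions were called with those libraries included. The early hrde-1 library was lower than the early WT library by at least 1 on the log2 scale at 504 regions (0.503% of regions tested) and higher at 179 (0.179%). Over the lower regions the median log2 difference was -0.87 early and -1.11 late, and 1010 of the 1358 had the larger fall late. Most of that gap lay in WT. The late WT library was above the early one at 1056 of the 1358 (77.8%), against 53.9% of all regions, with a median log2 difference of 0.29 against 0.03. In hrde-1 the late libraries differed from the early one by a median of 0.01 at the lower regions, against 0.05 over all. Each WT stage was 1 library, so stage and library cannot be told apart in WT.

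A strain by stage interaction was tested on the same 5 libraries, with 1 residual degree of freedom. It was negative, a larger fall late, at 69 regions (0.0688%) and positive at 0 by limma, against 2269 and 1823 at an unadjusted p under 0.05. At these 69 the median H3K9me3 was 19.9 FPKM in early hrde-1 and 9.63 and 9.90 FPKM in late hrde-1, against 19.1 FPKM in early and 28.3 FPKM in late WT. The early medians of the strains were close, and late the mark was lower than early in hrde-1 and higher than early in WT at each of the 69. The 69 were picked by this contrast in the same libraries, so the opposite movement describes them and is no separate result. Its share over all regions was not counted. Of the 69, 54 were on X and 48 of those within the first 300 kb of that chromosome, which holds 300 tested regions. Across that stretch the median region had 15.3 FPKM in early hrde-1 and 9.73 FPKM in each late hrde-1 library, against 15.4 FPKM in early and 18.4 FPKM in late WT. Input there had medians of 10.9 and 10.7 FPKM in hrde-1 and 10.5 and 10.4 FPKM in WT. Also, 55 of the 92 lower regions on X lay in it and no higher one.

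The largest interaction was at chrX:59001-60000, where H3K9me3 was 35.3 FPKM in early hrde-1 and 9.24 and 10.7 FPKM in late hrde-1, against 28.7 FPKM in early and 42.7 FPKM in late WT. Early, hrde-1 was the higher, and late both its libraries lay far below WT. The interaction was -2.29 on the log2 scale. Early hrde-1 and each WT stage had 1 library, so only the 2 late hrde-1 libraries gave a spread. The prior degrees of freedom were unlimited, so the test used the spread over all regions and not the region's own. Of the 69 regions, 2 were marked GRH, against 0.214% of all regions tested. Also, 35 were among the 1358 lower regions, which make up 1.35% of all regions tested. After quantile normalization no interaction passed, with a lowest adjusted p of 0.922. Their median was -1.47 then and -1.49 before, and all 69 stayed negative with an unadjusted p under 0.05. In the mRNA libraries the 5 germline markers summed to 1416 and 1505 FPKM in early and 1032 and 887 FPKM in late hrde-1, against 1677 and 1630 FPKM in early and 674 and 744 FPKM in late WT. The sperm marker sums given above were higher late than early in both hrde-1 libraries, and in WT 1 late sum was lower and 1 higher than the early sums. The intestine marker sums, also given above, were lower late than early in every library of both strains. The part of these lists in the stage difference was not tested.

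H3K36me3 was measured in other libraries of the same strains. At the 1358 regions with less H3K9me3, the median was 11.0 and 11.2 FPKM in late hrde-1, against 5.32, 5.64 and 6.11 FPKM in late WT. Every hrde-1 median lay above every WT median. Over all regions tested the medians were 3.31 and 4.29 FPKM in late hrde-1 and 5.02, 5.10 and 5.64 FPKM in late WT, the opposite order. H3K36me3 rose at 737 of the 1358 (54.3%), against 2.42% of all regions tested, and fell at 206 (15.2%), against 11.5%. The median log2 change was 0.55 at the lower regions and -0.28 over all regions. Quantile normalization, which gives the libraries the same distribution, gave 1051 regions higher and 532 lower in all, in place of 2423 and 11534, and 658 of the 1358 were then higher. Among the 1161 lower regions of equal input, 737 rose and 15 fell.

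The counts over all regions were sensitive to single libraries. The H3K36me3-lower count was 716 without hrde-1 late replicate 1, 26244 without hrde-1 late replicate 2, and 6635, 2452 and 1643 without WT late replicates 1, 2 and 3. The H3K36me3-higher count was 831 without hrde-1 late replicate 1 and 1162 and 1246 without WT late replicates 2 and 3. The number of regions with less H3K9me3 and more H3K36me3 moved less, between 540 and 709. In the early generation, with 1 library a strain, the median at the lower regions was 10.8 FPKM in hrde-1 and 6.47 FPKM in WT.

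H3K36me3 was also compared where MET-1, an H3K36 methyltransferase, was mutated in both groups by the xk4 allele. Median H3K36me3 at the 1358 regions was 10.2 and 10.7 FPKM in late met-1 hrde-1, against 5.04 and 5.59 FPKM in late met-1. It rose at 528 of them (38.9%), against 0.647% of all regions tested, and fell at 3, against 0.0868%. The median log2 change was 0.63 at these regions and -0.15 over all. Of the 649 regions with more H3K36me3 in met-1 hrde-1, 81.4% were among the regions with less H3K9me3 in hrde-1, as were 30.4% of the 2423 with more H3K36me3 in hrde-1 than in WT. With the replicate number as a block, 2771 regions rose in met-1 hrde-1, and 861 of them (31.1%) had less H3K9me3 in hrde-1. A rise in both comparisons, which share no library, was found at 485 of the 1358. Over all regions tested it can be no more frequent than 0.647%, the share that rose in met-1 hrde-1. Leaving out single libraries gave 432 to 533 in place of 528, and 40, 131, 162 and 851 regions lower in all in place of 87, without met-1 late replicates 2 and 1 and met-1 hrde-1 late replicates 1 and 2 in that order. At the 334 regions with more H3K9me3, H3K36me3 rose at 34 (10.2%) and fell at 111 (33.2%) in hrde-1, against 2.42% and 11.5% of all regions tested. In met-1 hrde-1 it rose at 6 (1.80%) and fell at 14 (4.19%), against 0.647% and 0.0868%. In hrde-1, 1 of the 34 rises and all 111 falls were at regions of equal input, and in met-1 hrde-1 all 6 rises were at regions of unequal and all 14 falls at regions of equal input.

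By group, 141 of the 215 GRH regions and 137 of the 191 GRTS regions gained H3K36me3 in late hrde-1, and 141 and 99 gained it in late met-1 hrde-1. These are 65.6% and 71.7% in hrde-1, against 2.42% of all regions tested, and 65.6% and 51.8% in met-1 hrde-1, against 0.647%. By limma none lost it in either comparison, against 11.5% and 0.0868% of all regions. In the run at chrI:2035001-2063000 it was 24.4 and 23.2 FPKM in late hrde-1, against 12.3, 12.2 and 13.3 FPKM in late WT. In the run at chrX:225001-256000 it was 23.8 and 22.7 FPKM against 9.60, 9.41 and 10.2 FPKM, and 28 of its 29 regions rose. There the rise in met-1 hrde-1 was smaller, with 9.77 and 12.2 FPKM against 6.81 and 6.80 FPKM in met-1 and 4 of 29 regions called, a difference between backgrounds that was not tested. The chromosome V runs of low hrde-1 input went the other way, with H3K36me3 lower at 69 of the 73 regions of chrV:2456001-2530000.

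**Figure D5:**
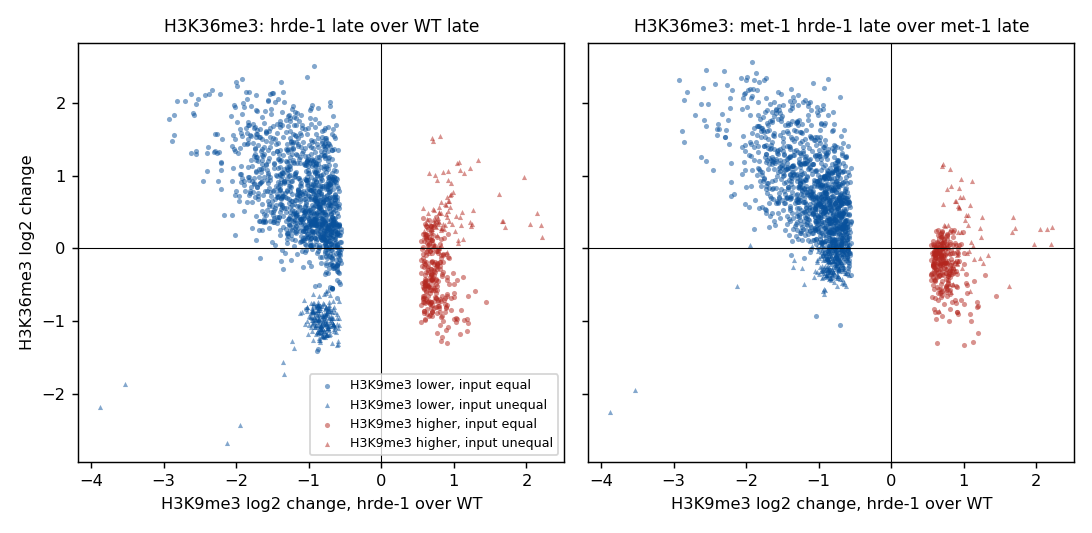
Log2 change of H3K36me3 (y axis) against log2 change of H3K9me3, hrde-1 over WT (x axis), at the 1358 lower and 334 higher regions, for hrde-1 over WT late (left) and met-1 hrde-1 over met-1 late (right). Triangles are regions of unequal input, and in the left plot they form the group near -1 on both axes, while most lower regions of equal input lie above 0 on the y axis.

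The authors' table also holds their own marks for less H3K9me3 in hrde-1, made for the early pair and for each late replicate from the same libraries, so the overlap is a description. Of the 785 regions so marked in the early pair 758 were among the 1358, as were 924 of 1143 for late replicate 1 and 773 of 819 for late replicate 2. All 484 regions marked in the 3 pairs were lower here, and 192 of the 1358 had no such mark. Regions that the table assigns to genes raised in late hrde-1 made up 14.9% of the lower and 15.3% of the higher regions, against 5.65% of all tested. H3K9me3 fell at 203 of these 5663 regions and rose at 51, with a median log2 change of -0.02, the same as over all regions.

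Set beside the hrde-1 values, the morc-1 libraries held more of the mark at the median lower region, though morc-1 input was several-fold higher in the chromosome V block. Over the 1358 regions the morc-1 medians were 13.98 FPKM early and 13.6 and 12.6 FPKM late. At GRH regions they were 7.79, 6.18 and 6.99 FPKM, between the hrde-1 and the WT medians. In the run at chrV:15580001-15599000 morc-1 averaged 6.82, 6.75 and 7.004 FPKM, close to the 5.42 to 6.34 FPKM of hrde-1, while at chrI:11052001-11076000 it averaged 23.3, 25.2 and 24.2 FPKM, beside 24.0 FPKM in early and 33.01 FPKM in late WT.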

How the data were processed

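H3K9me3, H3K36me3 and input libraries were read from a deposited table in which the authors gave FPKM per 1000-bp region. The mRNA values, FPKM as deposited by the authors, were read for hrde-1 and the 15 markers alone. Per the submitters' processing notes the tools included Bowtie 0.12.7, Trimmomatic 0.35 and TopHat2. The genome build is not given in the sources used here, nor is duplicate removal. The last region of chromosome V starts at 20919000 while genes of the WBcel235 table reach 20922732, so the builds differ and no gene names or sequences were taken from it. For the same reason the planned mRNA and small RNA tests of genes tied to regions were not made.

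The test was limma 3.58.1, run in R 4.3.3, on log2(FPKM + 1) of regions whose inputs averaged at least 2 FPKM, with a variance trend, two-sided, Benjamini-Hochberg over all 100250 regions. The pseudocount of 1 understates changes of low regions. The fit had strain and stage as terms and 2 residual degrees of freedom beside 42.2 prior ones. FPKM values were not whole fragments closely enough to recover counts. H3K36me3 was fitted without covariates, 2 hrde-1 against 3 WT and 2 met-1 hrde-1 against 2 met-1 late libraries. Named were the 12 longest lower and 5 longest higher runs and the 5 largest single falls and rises among regions whose strains did not overlap. The comparison, lists and rules were chosen with earlier results of these data known, and the input rule and region groups after their values were seen. Alternatives covered pseudocount, filters, scaling, input, model terms and each library left out. The procedure was tested on simulated data. In the chromatin table, 12 library columns fitted no single sample label and stayed unused.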

Additional observations from a re-analysis of the deposited data

Results flagged for a closer look

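The change in H3K9me3 between early and late libraries differed between hrde-1 and WT at 69 regions by limma's interaction test, all with the larger fall late. The 5 largest interactions were all on X, at -2.29 for chrX:59001-60000, -2.19 for chrX:50001-51000, -2.15 for chrX:60001-61000, -2.04 for chrX:58001-59000 and -2.04 for chrX:238001-239000, on the log2 scale. At chrX:50001-51000 H3K9me3 was 12.1 FPKM in early hrde-1 and 5.13 and 7.62 FPKM in late hrde-1, against 8.53 FPKM in early and 23.1 FPKM in late WT. At chrX:238001-239000 it was 13.5 FPKM in early hrde-1 and 4.22 and 5.15 FPKM in late hrde-1, against 20.8 FPKM in early and 34.0 FPKM in late WT. The order of the strains early therefore differed between these places, while late the fall was shared.

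Input libraries, outside the main measurement, differed between the strains in 8 blocks of 5 or more regions, 5 of them with more in hrde-1 and 3 with less, all on chromosome V between 2348001 and 2562000. The log2 difference, hrde-1 minus WT, in the 5 was 0.93 at chrIV:13863001-13915000, 0.98 at chrV:18702001-18726000, 0.82 at chrIII:333001-342000, 0.70 at chrV:19629001-19638000 and 0.63 at chrIV:13851001-13856000. At chrIV:13863001-13915000 input was 18.6 and 17.8 FPKM in hrde-1 against 8.92 and 9.28 FPKM in WT, and it was 8.73 and 9.15 FPKM in met-1 hrde-1. At chrV:18702001-18726000 and chrIII:333001-342000 the met-1 hrde-1 inputs were like those of hrde-1, at 32.02 and 31.4 FPKM and at 16.4 and 16.3 FPKM, against 17.1 and 16.01 FPKM and 8.89 and 7.92 FPKM in WT.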

How the results depend on the processing

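The lower count stayed between 924 and 1367 under the planned pseudocounts, filters, scalings, input subtraction and model terms, and between 570 and 1459 with a library left out, where a lone library is assumed to vary like the rest. With log2 input subtracted, 878 of the 1358 lower and 117 of the 334 higher regions were still called. The higher count was 187 with log2 input subtracted, 146 from late libraries alone, 218 without regions of unequal input, an alternative added after seeing the data, and 139 to 927 with a library left out. With log2 input subtracted, the median changed sign at runs chrV:2532001-2562000 (0.0487), chrV:2423001-2454000 (0.0335), chrIV:13885001-13915000 (-0.12), chrV:18703001-18726000 (-0.0337) and chrIV:13863001-13875000 (-0.10), as did chrX:9139001-9140000 (-0.34). Negative interactions numbered 25 at a mean of at least 5 FPKM and 0 after quantile normalization. With all 8 early and late H3K9me3 libraries, morc-1 included, they numbered 41. With log2 input subtracted they numbered 1015, and 367 were positive. In that fit the 1 late hrde-1 input was subtracted from both late hrde-1 libraries, so its error is missing from the residual spread. Both counts may therefore be too high. The prior degrees of freedom, unlimited at first, were 7.80 after quantile normalization. Leaving out a library would leave the interaction no residual degree of freedom. For H3K36me3 in hrde-1, higher and lower counts were 1051 and 532 after quantile normalization, 6526 and 21684 with log2 input subtracted, and 831 to 2827 and 716 to 26244 with a library left out. With a replicate block 5978 were lower, and in met-1 hrde-1 2771 were higher, 4433 lower and 861 higher in H3K36me3 with less H3K9me3; same-numbered libraries shared only a number, their deviations correlating across regions at 0.21 and 0.32. In met-1 hrde-1, leaving out a library gave 524 to 651 higher and 40 to 851 lower. The count higher in H3K36me3 with less H3K9me3 was 540 to 709 in hrde-1 and 432 to 533 in met-1 hrde-1. For H3K9me3 no paired analysis was possible because the strains share fewer than 2 replicate numbers within a stage. The planned mRNA and small RNA alternatives were not run. Where not named, the cause was not tested. A strain and stage had 1 or 2 H3K9me3 libraries, and depth is known only as an estimate, so a region not called is not shown to be equal.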
